A study of Jatropha curcas with 22 samples.

Results

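Heat shock proteins were followed through drought and rewatering in young leaves (up to 2 cm) and root tips (up to 1 cm) of Jatropha curcas, an oilseed shrub of dry places. A gene model was taken as a member when its deposited description contained "heat shock" or "heat-shock" and none of the words factor, dnaj and calmodulin. Of 151 descriptions with the term, 31 were left out by these words, and 120 of 57437 gene models remained. RNA came from pooled seedlings, 36 days old at the start, of the strain labelled Cape Verde islands. In each organ there were 2 libraries of moderate drought (day 13 without water), 2 of severe drought (day 49), 2 of plants rewatered after severe drought (day 52), 2 of watered controls at day 13 and 2 of watered controls with a joint label of days 49 and 52. Leaf also had 2 watered libraries of day 0, which makes 22 libraries, 12 from leaf and 10 from root. Pools held 6 plants at days 0 and 49 and 3 at days 13 and 52. The number is not given for the joint control, which served both severe drought and rewatering. Rewatered plants carry the day 52 label, 3 days after the last dry sampling, whereas the protocol speaks of 7 days of watering. The labels do not say that the libraries of a group came from separate plants, so a p-value measures only the spread between these libraries. All of them came from 1 strain, so the comparisons describe that strain alone.

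Heat shock proteins are molecular chaperones that keep other proteins from clumping and help them fold. Small heat shock proteins bind unfolding proteins without using ATP, and plants have many of them, with separate classes in the cytosol, mitochondria, chloroplasts and endoplasmic reticulum. The 70 kDa proteins use ATP to release and refold bound proteins, and the family includes constitutive (cognate) and stress-induced forms. The 90 kDa proteins act later, on nearly folded clients such as signalling proteins. Heat stress transcription factors switch on many of these genes, and several small heat shock genes are also known from seeds that dry out.

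By their descriptions, 40 members were small heat shock proteins, 16 were 70 kDa proteins, 3 were 90 kDa proteins and 1 was a heat shock protein 105. A further 34 were partners, by their descriptions proteins that bind, interact with or activate a heat shock protein, and 26 carried no size or class. Reads were found for 118 members, and 16 members had fewer than 100 reads over all libraries. The filter on low counts left 97 members in the leaf test and 102 in the root test, and the remaining members could not be tested. Among the small members, 11 had between 0 and 50 reads in the whole series. Of the 90 kDa members only Jcr4S20271.10, a chloroplast form, carried more than a handful of reads, since Jcr4S00208.60 had 4 reads and Jcr4S15413.20 had 8 reads in the whole series. A length was implied by the ratio of count to RPKM minus 1, in libraries where the latter was at least 2. Its median was 694 bases for 26 small members and 2790 bases for 11 of the 70 kDa members. The 70 kDa members ran from 308 bases (Jcr4S17401.10) to 7024 bases (Jcr4S07929.20). Heat shock protein 105 came to 346 bases, so an implied length does not fix a protein's size. Among the unclassed members, 10 had an implied length of 534 to 1390 bases and 10 of 2662 to 6535 bases, so the counts of each named class may be incomplete. Since 19 identifiers share the part before the point with another member, near-identical neighbours may have split reads, and values of such genes are uncertain.

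Library totals ran from 37104762 to 82215677 reads. Levels are counts scaled to a common library total (CPM), with mean ± SD and n = 2 libraries per group throughout, and the error of a log2 fold change is its SE. A member was called changed at an adjusted p under 0.05 in edgeR's quasi-likelihood test with Benjamini-Hochberg adjustment over all genes of the fit. Organ markers followed the labels in the main. A list of 49 photosynthesis genes summed to 14095 to 25166 CPM in leaf libraries and to 106 to 292 CPM in root libraries. Within root they summed to 194 and 238 CPM in the severe libraries and 113 and 153 CPM in their controls, with 15 of 40 called higher and 2 lower. The day 13 root controls summed to 194 and 292 CPM, so the severe libraries did not stand above both sets of controls. A list of 7 genes with root terms in their descriptions did not separate the organs, with 253 to 333 CPM in leaf and 306 to 463 CPM in root. The 2 day 13 controls of each organ stood apart from each other in the small members, with 268 and 985 CPM in leaf and 109 and 249 CPM in root. In bulk tissue, fewer cells of a type and less RNA per cell cannot be told apart.

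Severely droughted roots stood apart from every other group. There the members together reached 58123 ± 1059 CPM, 5.29% of all reads, against 8651 ± 175 CPM and 0.917% in the day 49/52 root control, 6.72 times the control level. The small members summed to 19161 and 21736 CPM in the severe root libraries, against 202 and 221 CPM in their controls. In rewatered roots the sum was 119 and 120.4 CPM, and in moderately droughted roots 183 and 139 CPM against 109 and 249 CPM at day 13. Both severe root libraries thus lay above every other library of the series for the small class. The 70 kDa members summed to 10654 and 9111 CPM in severe roots and 4392 and 4409 CPM in their controls, 2.25 times as much. Unclassed members summed to 24511 and 25303 CPM in severe roots, against 2887 and 2610.3 CPM in their controls.

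In leaf the picture was different. The small members summed to 1449 and 1140.1 CPM under severe drought and to 348 and 679.8 CPM in the day 49/52 controls, and the 70 kDa members to 4330.0 and 4481 CPM against 4824 and 4312 CPM. The sum over all members was 11159 ± 90.6 CPM in severe leaf and 11227 ± 1473 CPM in its control, a difference smaller than the spread between the controls. Severe root held 15.8 times the small-member level of severe leaf. Among the 104 members with at least 100 reads, 65 had their highest group mean in severe root, including 23 of 29 small members, 9 of 16 of the 70 kDa members and 18 of 25 unclassed members. Rewatered leaf was the highest group for 14 members and severe leaf for 5. No share over all genes is given for these counts, and the limit of 100 reads counts severe root too. Jcr4S09274.20, for example, passed it through 95 and 114 severe root reads. The counts are thus descriptions only.

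**Figure D1:**
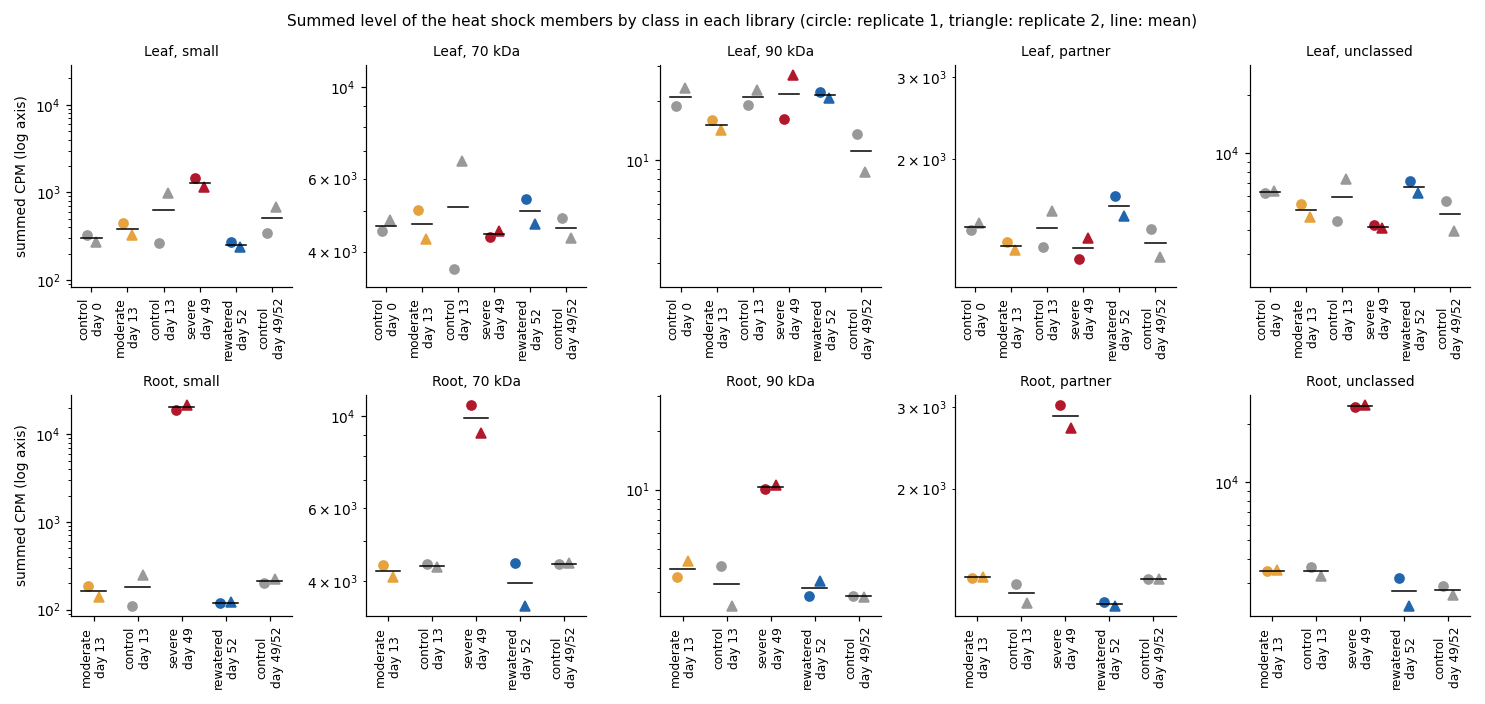
Summed level (CPM, log axis) of each class in every library, with leaf in the upper row and root in the lower row. Circles and triangles are replicates 1 and 2, and lines are group means. The small, 70 kDa, partner and unclassed sums are highest in the severe root libraries, whereas in leaf the severe and control sums of the 70 kDa class lie close together.

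Between genes, levels can be set side by side only per length, from the deposited RPKM. In the watered day 49/52 roots the most abundant member was the 70 kDa protein Jcr4S03314.10, with a mean RPKM of 1195, followed by the unclassed Jcr4S03592.10 at 774. In severe roots the 5 most abundant members were all small: Jcr4S00560.90 (cytosolic class II, RPKM 2995), Jcr4S10013.10 (class I, 2972), Jcr4S11638.20 (described as CI, counted with class I, 2644), Jcr4S14146.30 (class I, 2586) and Jcr4S00024.10 (2121). They ranked 8, 9, 10, 11 and 14 among all gene models of that group by mean RPKM. Of the 20 gene models with the highest RPKM, 6 were members in severe root and 0 in any other group. The leading members of severe leaf were Jcr4S03314.10 at RPKM 1104 and Jcr4S03592.10 at 971, followed by Jcr4S11638.20 at 871.

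Under severe drought in root, most small and unclassed members rose, as did 6 of 16 of the 70 kDa members. Of 102 members tested, 58 were called higher and 9 lower than in the day 49/52 root control, 65.7% of members against 45.1% of all 24924 genes (19.5% higher and 25.6% lower). The median log2 fold change was 1.55 over all members and -0.04 over all genes. By class, 22 small members rose and 3 fell of 30 tested (median 7.44), 6 of the 70 kDa members rose and 0 fell of 16 (0.52), 20 unclassed members rose and 3 fell of 25 (6.24), and 9 partners rose and 3 fell of 29 (0.23). With members that had 0 control reads set at their lower bound, the small median was 6.91. Both severe libraries lay above all other root libraries for 68 of the 99 members with at least 100 root reads (68.7%), against 27.4% of the 23402 genes at that limit. That read limit counts severe root too, so for some members it favours this outcome. Jcr4S09274.20 passed it through 95 and 114 severe reads, with at most 2 in any other root library. The low-count filter of the test takes in severe root as well. Jcr4S09274.20 and Jcr4S12488.10, for example, passed that filter through severe root alone. They could thus be called only higher there, and only lower in rewatered than in severe root. Both severe libraries lay below all other root libraries for 10 of the 99 members (10.1%), against 26.4% of all genes at the 100-read limit.

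Rises in the small class spanned its subclasses. Class I, the main cytosolic class, had 15 members tested, of which 13 rose and 0 fell, with log2 fold changes of 0.72 to 11.17. Jcr4S02676.40 of class I read 369 and 581 CPM in severe roots and 0.336 and 0.471 CPM in their controls. Its log2 fold change of 10.16 ± 0.37 (adjusted p = 2.1e-05) was among the best supported of the class. The largest fitted change was that of Jcr4S02800.20, also class I, with 159 and 195 CPM in severe roots and 0.0373 and 0.112 CPM in controls (log2 11.17 ± 1.28, adjusted p = 0.00055). Its control level rests on 2 and 5 reads. Jcr4S01511.10, of class I as well, read 958 and 1118 CPM against 0.578 and 0.560 CPM (log2 10.78 ± 1.503), and Jcr4S18690.10 read 969 and 1062 CPM against 0.802 and 0.874 CPM (log2 10.19 ± 1.27). In all of these the day 49/52 control libraries lay under 1 CPM and the severe libraries above 100 CPM. The day 13 root controls held 20 and 340 reads of Jcr4S01511.10, 10 and 97 of Jcr4S02800.20 and 61 and 490 of Jcr4S18690.10. Those of Jcr4S02676.40 held 9 and 7 reads. All lay far below the severe reads, but the size of these rises depended on the control used.

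Other small members were better measured in the controls. Jcr4S10013.10 (class I) read 2800.1 and 3044 CPM in severe roots and 91.3 and 95.9 CPM in controls, a 30.2-fold rise (adjusted p = 0.00033). Jcr4S11638.20 read 2468 and 2315 CPM against 20.0 and 22.7 CPM, a 108-fold rise (adjusted p = 2.7e-05). The class II gene Jcr4S00560.90 read 2966 and 2383 CPM against 7.93 and 10.3 CPM (log2 8.15 ± 0.98, adjusted p = 0.00068). All 3 had severe libraries far above the controls. The class III gene Jcr4S04894.20 read 757 and 632 CPM against 0.933 and 0.986 CPM, and the class IV gene Jcr4S01017.50 read 999 and 1427 CPM against 3.30 and 3.07 CPM. The 2 members described as localized to mitochondria, Jcr4S02533.10 and Jcr4S01015.90, rose by log2 5.48 ± 0.60 and 5.80 ± 0.71. Jcr4S12488.10 of class I had 17 and 31 reads in the severe libraries and 0 in the controls, at least 9.72-fold higher against a floor of 3 reads per library. It had 0 reads in every other root library too, so it passed the low-count filter only through severe root. Its call, counted among the class I rises, could thus only be a rise and is a description. Members of classes I, II, III and IV and of mitochondria were thus all among those that rose, while the 2 class V genes, Jcr4S04139.20 and Jcr4S05144.20, had 2 and 0 reads in the whole series.

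A minority of small members moved the other way. Jcr4S16186.20, Jcr4S02120.20 and Jcr4S15196.10, all described only as small heat-shock, were lower in severe roots. Jcr4S16186.20 read 1.01 and 0.710 CPM in severe roots and 2.63 and 2.26 CPM in controls (log2 -1.56 ± 0.26, adjusted p = 0.0027), and Jcr4S02120.20 read 2.27 and 2.15 CPM against 5.26 and 6.34 CPM. In both, the severe and control libraries did not overlap. Jcr4S15196.10 read 9.07 and 5.68 CPM against 21.5 and 22.8 CPM, but its fall depended on the control used: against the day 13 root control, at 7.51 and 4.56 CPM, the log2 change was 0.25 (adjusted p = 0.53).

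**Figure D2:**
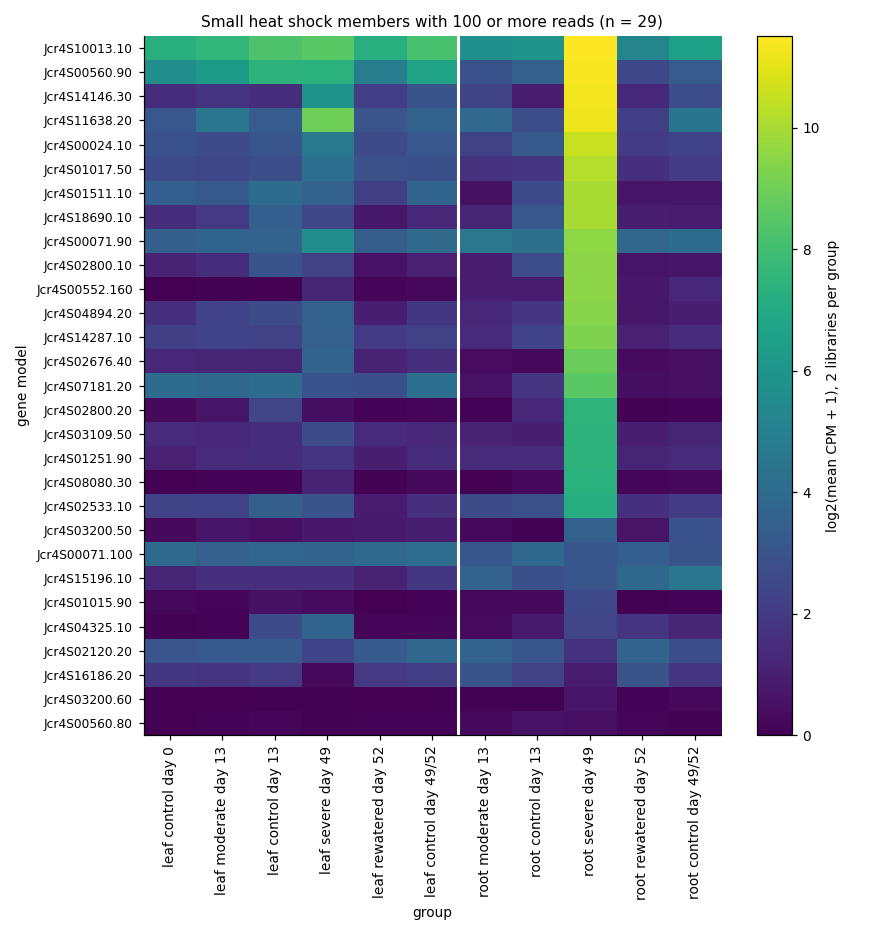
Mean level of each small member with at least 100 reads (rows) in each group (columns, leaf left of the white line, root right of it), as log2 of CPM plus 1. Most rows are brightest in the severe root column, and few rows are bright in any leaf column.

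In the 70 kDa class 6 of 16 members rose in severe root and 0 fell. The share called was 37.5%, against 45.1% of all genes (19.5% higher and 25.6% lower). Jcr4S08787.20, described as heat shock protein 70, read 4534 and 3176 CPM there and 468 and 499 CPM in controls, a 7.70-fold rise (adjusted p = 5e-04). The stromal chloroplast-type Jcr4S01939.40 read 133 and 196 CPM against 3.26 and 5.13 CPM (log2 5.25 ± 0.36, adjusted p = 8.7e-05). Jcr4S07929.20, described as cognate, read 196 and 277 CPM against 6.16 and 7.56 CPM (log2 5.06 ± 0.32, adjusted p = 6.4e-05). In none of these 3 did the severe and control libraries overlap. The abundant Jcr4S03314.10 read 3597 and 3558 CPM in severe roots and 2738 and 2772 CPM in controls, a log2 change of 0.33 ± 0.15 that did not pass the test (adjusted p = 0.12). Jcr4S11847.20, also described as cognate, read 732 and 541 CPM against 562 and 550.0 CPM (adjusted p = 0.8). The other 3 called members, Jcr4S14531.10, Jcr4S00447.50 and Jcr4S17401.10, rose by log2 1.53 ± 0.51, 1.39 ± 0.15 and 1.31 ± 0.35. With library totals alone as the scaling, 5 members of the class were called higher and 1 lower.

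The chloroplast 90 kDa protein Jcr4S20271.10 rose to 10.1 and 10.6 CPM in severe roots, against 2.84 and 2.82 CPM in controls (log2 1.82 ± 0.26, adjusted p = 0.0012). In the other root groups it read 2.88 and 3.43 CPM after rewatering, 3.58 and 4.32 CPM under moderate drought and 4.06 and 2.55 CPM at day 13 in controls. Leaf held more of it: 18.8 and 23.2 CPM at day 0, 16.1 and 14.3 CPM under moderate drought, 19.1 and 22.8 CPM in day 13 controls, 16.2 and 27.0 CPM under severe drought, 22.2 and 20.6 CPM after rewatering and 13.6 and 8.65 CPM in day 49/52 controls. Every root library outside severe drought lay below every leaf library, and leaf exceeded root in the controls at day 13 (log2 2.65 ± 0.28, adjusted p = 1.1e-06) and at days 49/52 (1.97 ± 0.28, adjusted p = 1.9e-05). Its leaf rise under severe drought (log2 0.94 ± 0.27, adjusted p = 0.011) was lost against the day 13 leaf control, where the log2 change was 0.04. It also missed the threshold without replicate 2 of severe leaf (log2 0.51) and without replicate 2 of the day 49/52 control (0.65).

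Of the members without a size in their description, most rose in severe roots. The short ones, under 1500 bases by implied length, had a median log2 change of 8.22, with 8 higher and 2 lower of 10, and the long ones a median of 2.57, with 8 higher and 0 lower of 10. Jcr4S02234.80, a long one, took the most reads of any member in severe roots, at 6682 and 6459 CPM in severe roots and 81.4 and 87.1 CPM in controls (75.3-fold, adjusted p = 0.00018). These reads set its level far above the controls. Jcr4S01616.30 read 3929 and 3568 CPM against 6.49 and 6.77 CPM, and Jcr4S07181.10 867 and 1084 CPM against 0.616 and 0.605 CPM. Jcr4S03592.10, the unclassed gene with the highest RPKM in watered root, changed less, with 3608 and 3264 CPM in severe roots and 1801 and 1598 CPM in controls (1.95-fold, adjusted p = 0.0052).

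Among the partners, 6 of the 12 tested genes described as interacting with the 70 kDa protein rose in severe root and 1 fell. Of the 16 described as binding a heat shock protein, 2 rose and 2 fell. Partners were called in 41.4% of 29, against 45.1% of all genes (19.5% higher and 25.6% lower). Their share was thus not above that of genes at large. The Hsp90 activator homolog Jcr4S01184.70, whose relatives in yeast and animals stimulate the ATPase of 90 kDa proteins, read 676 and 579 CPM in severe roots and 108 and 104 CPM in controls (5.72-fold, adjusted p = 0.00012). Jcr4S00409.80, described as interacting with the 70 kDa protein, read 1166 and 943 CPM against 252 and 249 CPM (4.07-fold, adjusted p = 0.00051). In the opposite direction, Jcr4S00103.70, a binding partner, fell to 0.930 and 0.784 CPM in severe roots, against 10.6 and 10.7 CPM in controls (log2 -3.68 ± 0.32, adjusted p = 0.00018). The partner with the largest called rise, Jcr4S09905.30, stood at 1.498 and 0.710 CPM against 0.0746 and 0.0448 CPM, with 58 and 29 severe reads and 4 and 2 control reads.

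Severe leaf showed a smaller and mixed response. There 30 members rose and 19 fell of 97 tested, 50.5% of members against 57.1% of all 23200 genes (27.6% higher and 29.5% lower). The share of members called was thus not above that of genes at large. The median log2 change was 0.37 over members and 0.03 over all genes. Small members rose in 11 and fell in 3 of 27 (median 1.55), 70 kDa members rose in 1 and fell in 6 of 15 (median -0.29), unclassed members rose in 10 and fell in 5 of 24 and partners rose in 7 and fell in 4 of 29. The small median was 0.77 without replicate 1 of severe leaf and 0.28 against the day 13 leaf control, where 10 small members rose and 2 fell. At the limit of 100 reads, both severe libraries lay above all other leaf libraries for 28 of 97 members (28.9%) and for 25.9% of 22466 genes. They lay below all other leaf libraries for 19 members (19.6%) and for 25.6% of these genes.

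Of the small members that rose in leaf, Jcr4S11638.20 had the highest RPKM. It read 573 and 429 CPM in severe leaf and 11.2 and 10.6 CPM in controls (45.0-fold, adjusted p = 0.00011). No leaf library outside severe drought exceeded 31.7 CPM. Jcr4S14146.30 (class I) read 79.9 and 35.7 CPM against 5.38 and 8.44 CPM (8.22-fold, adjusted p = 5.6e-05). Jcr4S04325.10 had the largest fold, with 8.28 and 15.7 CPM in severe leaf and 0.189 and 0.144 CPM in controls (log2 6.12 ± 1.03, adjusted p = 7e-04). The day 13 control libraries read 9.66 and 1.04 CPM, and against them the log2 change was 1.15 and did not pass the test. The abundant Jcr4S10013.10 read 355 and 395 CPM in severe leaf and 191 and 380.5 CPM in controls (log2 0.37 ± 0.48, adjusted p = 0.53), and its change did not pass the test. Jcr4S16186.20 was lower in leaf as in root, with 0.187 and 0.259 CPM in severe leaf and 2.92 and 3.76 CPM in controls (log2 -3.91 ± 0.37, adjusted p = 1.1e-05).

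In the 70 kDa class 6 of 15 members fell in severe leaf and 1 rose. The share called was 46.7%, below the 57.1% of all genes (27.6% higher and 29.5% lower). The mitochondrial-type Jcr4S01168.40 read 6.41 and 4.28 CPM in severe leaf and 40.4 and 30.2 CPM in controls (log2 -2.75 ± 0.31, adjusted p = 3.7e-05). Jcr4S11847.20 read 437 and 282 CPM against 1239.8 and 897 CPM (3.03-fold lower, adjusted p = 0.0021), and Jcr4S07929.20 read 29.1 and 13.0 CPM against 107 and 79.7 CPM (4.53-fold lower, adjusted p = 0.00015). The stromal-type Jcr4S01939.40 was the 1 member of the class called higher, at 4.20 and 4.19 CPM in severe leaf and 0.483 and 0.527 CPM in controls. The unclassed Jcr4S07413.10, among the 5 most abundant members in control leaf by RPKM, fell to 161 and 104 CPM in severe leaf, against 943 and 644 CPM in controls (6.09-fold lower, adjusted p = 7e-05).

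**Figure D3:**
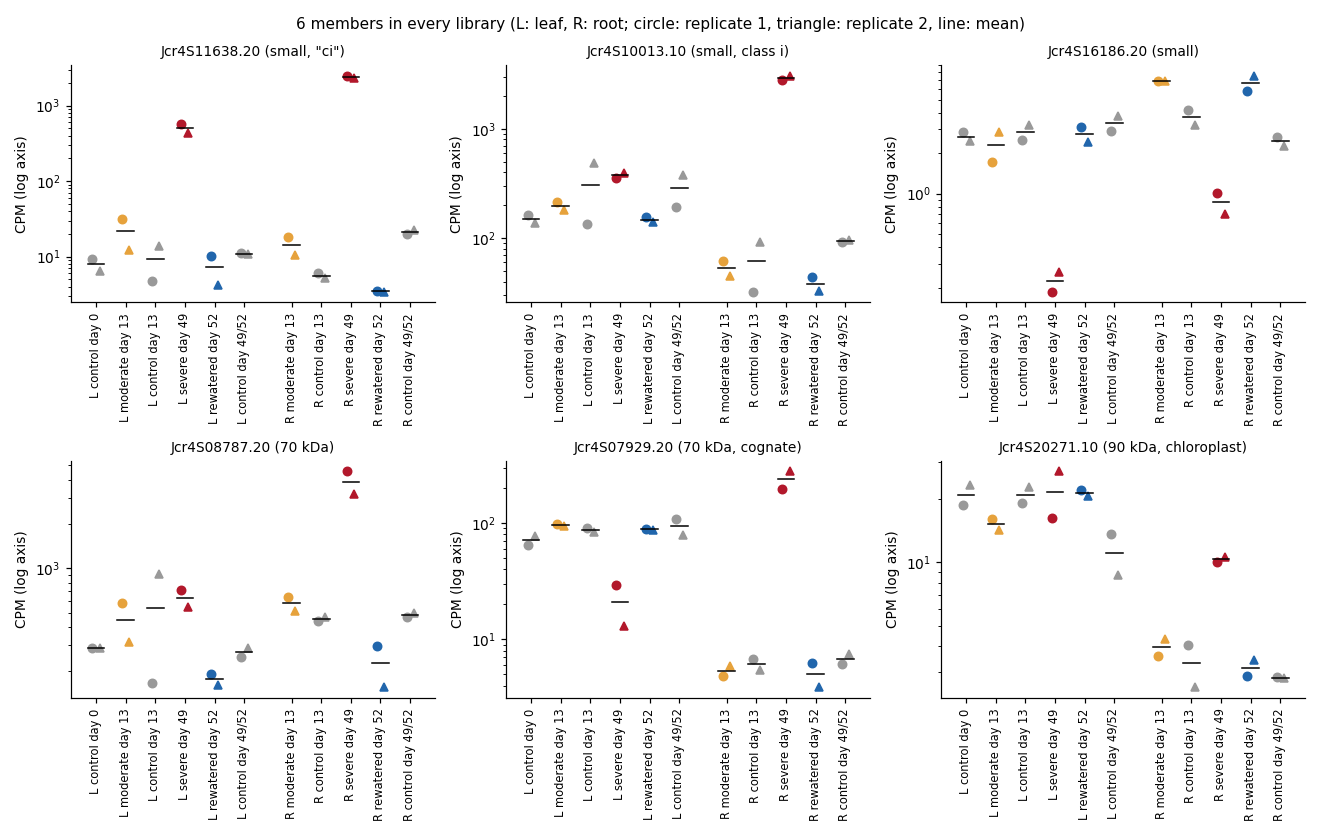
Level (CPM, log axis) of 6 members in each library, with leaf groups on the left and root groups on the right of each panel. Jcr4S11638.20 is high in both severe groups, Jcr4S08787.20 and Jcr4S10013.10 are highest in severe root, Jcr4S16186.20 is lowest in both severe groups, and Jcr4S07929.20 is low in severe leaf but high in severe root.

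The difference between organs was tested directly, as the leaf effect of severe drought minus the root effect. Of 103 members in the fit over all libraries, 54 had a lower and 6 a higher log2 effect in leaf than in root, 58.3% against 35.7% of all 25939 genes (18.6% lower and 17.1% higher). Small members accounted for 21 lower and 1 higher of 30, unclassed members for 23 lower and 0 higher of 25, and 70 kDa members for 6 lower and 0 higher of 16. Of the 96 members tested in both organs, 26 were called higher in both and 6 lower in both. A further 25 rose in root with no call in leaf. These were 27.1%, 6.25% and 26% of the 96 members, against 10.9%, 11.9% and 7.96% of the 22218 genes tested in both organs. The 6 lower in both were the small Jcr4S16186.20 and Jcr4S02120.20, the partner Jcr4S00103.70 and the unclassed Jcr4S02120.10, Jcr4S02891.40 and Jcr4S06692.10. The 4 that fell in leaf and rose in root (4.17% of members and 2.35% of all genes) were the 70 kDa members Jcr4S07929.20 and Jcr4S00447.50, the partner Jcr4S00409.80 and the unclassed Jcr4S02598.30.

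Jcr4S07929.20, described as a cognate 70 kDa protein, had an organ difference of -7.26 ± 0.48 on the log2 scale (adjusted p = 7e-08). Its implied length of 7024 bases was the longest of 11 in the class (median 2790). Whether its reads all belong to a 70 kDa gene was not tested. Under severe drought it read 29.1 and 13.0 CPM in leaf and 196 and 277 CPM in root, whereas in the day 49/52 controls it read 107 and 79.7 CPM in leaf and 6.16 and 7.56 CPM in root. The order of the organs was thus opposite in droughted and watered plants. For Jcr4S00409.80 the log2 changes were -0.74 ± 0.22 in leaf and 2.02 ± 0.23 in root, and for Jcr4S00447.50 -0.45 ± 0.16 in leaf and 1.39 ± 0.15 in root. The class I gene Jcr4S07181.20 had the most negative difference among small members, -11.37 ± 1.27 (adjusted p = 1.4e-05). It read 10.1 and 2.68 CPM in severe leaf and 9.46 and 24.9 CPM in leaf controls, and 352 and 400.0 CPM in severe root and 0.298 and 0.471 CPM in root controls. In the other direction, the small Jcr4S04325.10 changed more in leaf (4.53 ± 1.21, adjusted p = 0.0093), as did the binding partner Jcr4S02330.40 (3.03 ± 0.80, adjusted p = 0.0083). Jcr4S02330.40 read 2.01 and 3.46 CPM in severe leaf and 0.273 and 0.551 CPM in leaf controls, against 0.517 and 0.441 CPM in severe root and 0.336 and 0.852 CPM in root controls.

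**Figure D4:**
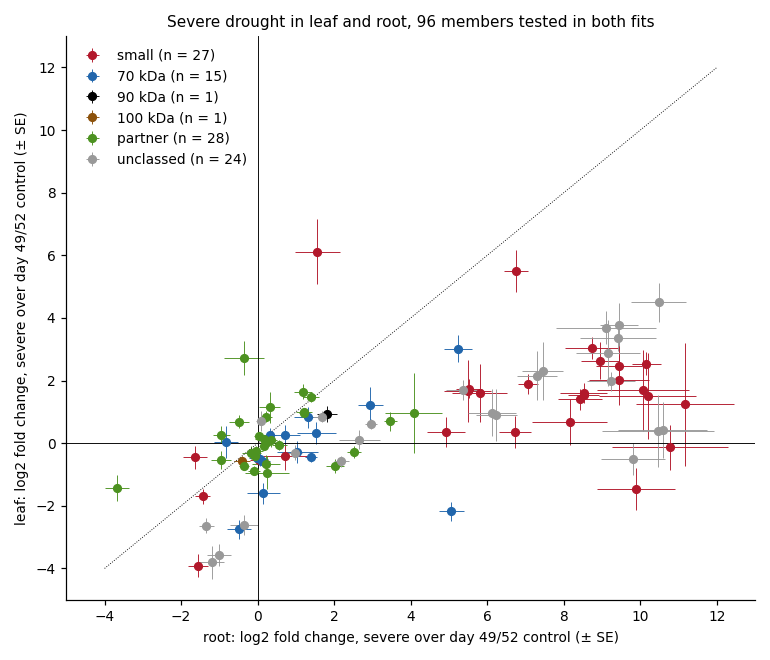
Log2 fold change of severe drought over the day 49/52 control in root (horizontal axis) and leaf (vertical axis) for the 96 members tested in both organs, with SE bars. The dotted line marks equal change, and most small and unclassed members lie to the right of it, with root changes of up to 11.17 and leaf changes of up to 6.12 on the log2 scale.

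After rewatering the small class no longer stood above the controls in either organ. Rewatered roots summed to 119 and 120.4 CPM of small members and their controls to 202 and 221 CPM, and rewatered leaf to 271 and 236 CPM against 348 and 679.8 CPM. Set against severe drought, rewatered roots had 68 members lower and 11 higher of 102 (among all genes 22% were lower and 27.4% higher, 49.4% in all), with 24 small members lower and 3 higher of 30. In rewatered leaf, 37 members were lower and 26 higher than in severe leaf of 97 (among all genes 30.2% were lower and 29.1% higher, 59.3% in all), with 16 small members lower and 3 higher of 27. Jcr4S11638.20 read 3.46 and 3.43 CPM in rewatered roots and 10.2 and 4.17 CPM in rewatered leaf. Members that severe drought had lowered were higher again after rewatering. Jcr4S01168.40 read 72.4 and 60.4 CPM in rewatered leaf and 6.41 and 4.28 CPM in severe leaf (log2 3.68 ± 0.32, adjusted p = 5.8e-06), and Jcr4S16186.20 read 3.12 and 2.42 CPM in rewatered leaf and 0.187 and 0.259 CPM in severe leaf (log2 3.66 ± 0.37, adjusted p = 1.5e-05). The 70 kDa class had 7 members higher and 3 lower of 15 in rewatered leaf against severe leaf, and 1 higher and 9 lower of 16 in rewatered root against severe root.

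Against the day 49/52 controls, rewatered leaf had 2 members higher and 1 lower of 97 (among all genes 0.772% were higher and 3.79% lower, 4.56% in all) and rewatered root 5 higher and 9 lower of 102 (among all genes 8.53% were higher and 8.44% lower, 17% in all). In rewatered root Jcr4S11638.20 lay below the control at 3.46 and 3.43 CPM against 20.0 and 22.7 CPM (6.07-fold lower, adjusted p = 0.0093). Jcr4S16186.20 lay above it, at 5.76 and 7.49 CPM against 2.63 and 2.26 CPM (2.76-fold, adjusted p = 0.014). With the day 13 root control in place of the joint one, edgeR called 0 members in rewatered root. The 3 leaf calls were the unclassed Jcr4S02598.30 (log2 0.76 ± 0.17, adjusted p = 0.033), Jcr4S06028.20 (0.74 ± 0.18, adjusted p = 0.045) and Jcr4S01616.40 (-1.84 ± 0.44, adjusted p = 0.045). More leaf members were called without replicate 1 of the leaf control. No leaf call remained without its replicate 2 or without replicate 2 of rewatered leaf.

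Moderate drought left few calls. In leaf, edgeR called 0 of 97 members and 0.00431% of all genes, with 11 members at an unadjusted p under 0.05. DESeq2 called 4 members, all lower, and its share of all genes is not given here. In root, 2 of 102 members rose and 0 fell (among all genes 1.98% rose and 0.754% fell, 2.74% in all). Jcr4S11638.20 read 17.9 and 10.4 CPM in moderate root and 6.03 and 5.16 CPM in controls (2.57-fold, adjusted p = 0.042). The partner Jcr4S00691.30, described as interacting with the 70 kDa protein, read 25.8 and 17.97 CPM against 8.41 and 3.90 CPM (3.61-fold, adjusted p = 0.041). These root calls depended on single libraries. More members were called without replicate 1 of the day 13 root control. No call remained without its replicate 2, or without replicate 1 of moderate root.

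The replicates of the day 13 controls differed in the heat shock genes. In leaf, replicate 1 held 268 and replicate 2 985 CPM of small members, and 21 of the 23 small members at 1 CPM or more were higher in replicate 2 (median log2 difference 0.63), against a median of -0.03 over all genes at that level. The 70 kDa sums were 3622 CPM in replicate 1 and 6621 CPM in replicate 2. In root, the small sums of the day 13 controls were 109 and 249 CPM, and 14 of 19 small members were higher in replicate 2 (median 1.33). The severe leaf libraries also differed, in the other direction, with 3 of 23 small members higher in replicate 2 (median -0.63). Jcr4S08787.20 ranged from 167 to 911 CPM between the day 13 leaf controls, and Jcr4S02234.80 from 74.9 to 823 CPM. The small median for moderate leaf was -0.29 against both controls, 0.57 without replicate 2 and -0.49 without replicate 1, so its direction rested on that library. A list of 27 genes with seed terms in their descriptions also took in a superfamily name shared with lipid-transfer proteins. It is thus not limited to storage proteins and oil bodies. The list summed to 171 and 277 CPM in moderate root and 533 and 1527 CPM in its day 13 controls, from lowest to highest. The part of these differences in the moderate results was not tested.

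**Figure D5:**
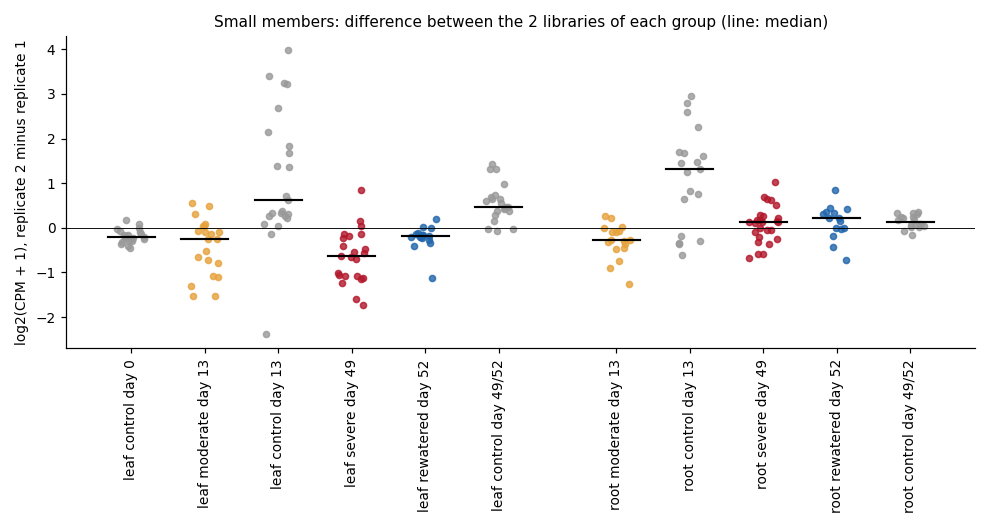
Difference in log2(CPM + 1) between replicate 2 and replicate 1 of each group for small members at 1 CPM or more (points), with the median (line). The day 13 controls of leaf and root have the medians farthest above 0 (0.63 and 1.33), followed by the day 49/52 leaf control (0.47). Severe leaf lies on the other side of 0, with a median of -0.63.

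Among the watered groups, leaf at day 13 had 1 member higher and 1 lower than at day 0 of 97 (among all genes 1.31% and 0.517%, 1.83% in all), and at days 49/52 1 higher and 0 lower than at day 13 (among all genes 0.25% and 0.263%, 0.513% in all). The leaf member higher at day 13 was the small Jcr4S04325.10 (log2 6.32 ± 1.12, adjusted p = 0.028) and the lower one the mitochondrial-type 70 kDa Jcr4S01168.40 (-1.40 ± 0.29, adjusted p = 0.041). Root at days 49/52 had 15 members higher and 8 lower than at day 13 of 102 (among all genes 15.6% were higher and 15.3% lower, 30.9% in all). By class, 4 small members were higher and 5 lower of 30 (median -0.17), and 6 partners higher and 0 lower of 29. Jcr4S14146.30 was higher, with 4.89 and 6.39 CPM at days 49/52 and 0.816 and 0.946 CPM at day 13 (adjusted p = 0.014), and Jcr4S18690.10 was lower, with 0.802 and 0.874 CPM at days 49/52 and 1.16 and 14.04 CPM at day 13 (adjusted p = 0.047). The day 13 libraries of Jcr4S18690.10 were far apart, and without replicate 2 of day 13 its log2 change was -0.46 and missed the threshold. In root more members were called without replicate 1 of the day 13 control, and fewer without replicate 2 of the day 49/52 control. For the small class the counts were 3 higher and 11 lower (median -0.56) without replicate 1 of day 13, and 5 higher and 1 lower (median 0.25) without its replicate 2. They were 4 higher and 0 lower without replicate 1 of days 49/52, and 3 higher and 0 lower without its replicate 2. The median turned positive without replicate 2 of day 13.

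Watered leaf and root differed in which members they used. At day 13, 32 members were higher and 7 lower in leaf than in root of 103 (among all genes 29% were higher and 29.7% lower, 58.7% in all), and at days 49/52 30 were higher and 17 lower (among all genes 31.2% and 31.7%, 63% in all). At day 13, 8 small members were higher and 2 lower in leaf (median 0.71), but without replicate 2 of the leaf control 5 were higher and 7 lower (median -0.25), and over all members 21 were higher and 16 lower. Without replicate 1 of the leaf control the small counts were 10 higher and 2 lower, and without replicate 1 or 2 of the root control 6 higher and 4 lower, or 7 higher and 2 lower. The members' shares of 37.9% and 45.6% were below those of genes at large. The class II gene Jcr4S00560.90 was higher in leaf at both times, with 56.4 and 142 CPM in leaf and 7.93 and 10.3 CPM in root at days 49/52 (log2 3.44 ± 0.86, adjusted p = 0.003). Jcr4S15196.10 was lower in leaf, with 2.10 and 3.24 CPM in leaf and 21.5 and 22.8 CPM in root. The partner Jcr4S00691.30 was lower in leaf at both times, with 0.147 and 0.0719 CPM in leaf and 21.1 and 24.5 CPM in root at days 49/52 (log2 -7.64 ± 0.50, adjusted p = 7e-09).

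Other genes of the heat shock response, listed by their descriptions, were tested in the same fits, in which 45.1% of all genes were called in severe root and 57.1% in severe leaf. Counts of these lists are given as descriptions beside those shares. Of 17 heat stress transcription factors tested, 5 rose and 2 fell in severe root, and 10 rose and 1 fell in severe leaf. Jcr4S00335.100 read 2305 and 1810.1 CPM in severe root and 17.2 and 18.3 CPM in controls (log2 6.81 ± 0.49, adjusted p = 0.0001), and in leaf 103 and 96.8 CPM against 7.97 and 17.7 CPM (adjusted p = 0.064). This factor also differed between the day 13 leaf controls, with 9.95 and 261 CPM. Genes described as chaperonins rose in 9 and fell in 0 of 13 in severe root. In severe leaf 1 of the 13 rose and 10 fell. Jcr4S02414.50, described as Cpn60-2, rose 9.42-fold in severe root (adjusted p = 7e-05) and was lower in severe leaf (log2 -0.49 ± 0.16, adjusted p = 0.023).

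Galactinol synthases, which start the synthesis of raffinose sugars, rose in 3 of 3 in severe root and 2 of 3 in severe leaf. Of 4 BAG genes, a family that binds 70 kDa proteins as co-chaperones, 1 rose and 1 fell in severe root, and 0 rose and 3 fell in severe leaf. The one that rose in root, Jcr4S00118.20 (BAG5), read 397 and 318 CPM in severe root and 4.09 and 4.01 CPM in controls, and in leaf 5.78 and 5.29 CPM against 5.19 and 4.31 CPM. Jcr4S00874.10, described as bcl-2-associated athanogene 3, fell in both organs, with 6.43 and 11.4 CPM in severe root and 41.5 and 44.9 CPM in controls (log2 -2.33 ± 0.28, adjusted p = 0.00068), and in leaf 11.8 and 7.82 CPM against 282 and 471 CPM (log2 -5.29 ± 0.35, adjusted p = 8.7e-07). Of the DnaJ genes, whose proteins deliver clients to the 70 kDa class, 9 rose and 4 fell of 29 in severe root. In severe leaf 10 rose and 9 fell of 28. These counts, and those of the other lists here, stand beside 45.1% of all genes called in severe root and 57.1% in severe leaf. Genes described as calreticulin, calnexin or protein disulfide isomerase, names mostly given to folding proteins of the endoplasmic reticulum, with 1 described as lqy1-like, rose in 0 and fell in 4 of 10 in severe root and rose in 1 and fell in 7 of 8 in severe leaf. Ascorbate peroxidases, which remove hydrogen peroxide, rose in 3 and fell in 2 of 7 in severe root and rose in 2 and fell in 4 of 7 in severe leaf.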

How the data were processed

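RNA of 22 libraries was sequenced as single reads on a HiSeq 2000 from unstranded TruSeq v2 libraries, per the labels' protocols. The authors deposited raw read counts per gene model and RPKM values, with a description for each model. The aligner, the counter and the genome build are not given in sources used here. The deposited RPKM was 1.0 wherever the count was 0 and its sorted columns differed by at most 0.7, so it was used only to set genes side by side and in an alternative test. Without strand, reads of overlapping antisense genes cannot be told apart.

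From the counts, edgeR 4.0.16 (R 4.3.3) fitted group means with filterByExpr, TMM scaling, robust quasi-likelihood dispersion and a two-sided quasi-likelihood F-test. Fits covered the 12 leaf libraries (23200 genes), the 10 root libraries (24924 genes) and all 22 (25939 genes, for organ contrasts and levels). P-values were adjusted by Benjamini-Hochberg over all genes of a fit, and the SE is the absolute log2 fold change divided by the square root of F. Library totals of 37104762 to 82215677 reads set the precision, and bounds of 3 reads per library cover counting error only.

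The members, classes and lists were chosen with earlier results of these data known. Named genes were the 3 called members with the largest change in each direction per comparison for the small, 70 kDa and 90 kDa classes, 1 for other classes, and the 2 members of each class with the highest mean RPKM in leaf and in root. Outside this rule, the text names members that complete a count and other response genes. It also names, chosen after their values were seen, Jcr4S00024.10, Jcr4S02676.40 in root, Jcr4S04894.20, Jcr4S01017.50, Jcr4S02533.10, Jcr4S01015.90, Jcr4S12488.10, Jcr4S01616.30 and Jcr4S09274.20. Alternatives were DESeq2 1.42.0, limma 3.58.1 on log2 RPKM with and without 1 added, DESeq2 size factors, no filter, a filter at 50 reads, 1 fit over all libraries, the replicate number as a block, the day 13 control, each library left out and, chosen after the data were seen, library totals alone.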

Additional observations from a re-analysis of the deposited data

Results flagged for a closer look

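The effect of severe drought differed between organs for 60 members, by the interaction test over all 22 libraries (edgeR's quasi-likelihood test, Benjamini-Hochberg adjusted p under 0.05). The named members among them follow, each with its leaf log2 fold change minus its root log2 fold change. In the 70 kDa class the differences were -7.26 for Jcr4S07929.20, -2.29 for Jcr4S01168.40 and -2.25 for Jcr4S01939.40. For small members they were 4.53 for Jcr4S04325.10, -11.37 for Jcr4S07181.20, -10.93 for Jcr4S01511.10 and -9.95 for Jcr4S02800.20. For partners they were 3.03 for Jcr4S02330.40 and -2.82 for Jcr4S01184.70, and for the unclassed Jcr4S10013.20 -10.35. The controls of Jcr4S02800.20 held 4 and 8 reads in leaf and 2 and 5 reads in root.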

How the results depend on the processing

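Counts of called members stayed within 1.5 times of the reported ones under every alternative for severe drought in leaf and root, rewatered against severe plants, the leaf and root controls against each other and the organ difference. Leaving out 1 library gave 44 to 45 members for severe leaf, 59 to 62 for severe root, 47 to 54 and 69 to 74 for rewatered against severe leaf and root, 37 to 42 and 37 to 39 for the organs at day 13 and days 49/52, and 52 to 58 for the organ difference. The small counts depended on the processing.

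Moderate leaf (0 members) had 14 without a filter and 4 with DESeq2, and 0 to 1 when 1 library was left out. Rewatered leaf against its control (3) had 26 without a filter, 12 with DESeq2, 0 with limma on RPKM with or without 1 added, 10 against the day 13 control and 0 to 12 with 1 library left out. Leaf at day 13 against day 0 (2) had 23 without a filter, 5 with DESeq2, 1 with limma on either RPKM scale, 1 in 1 fit over all libraries and 0 to 10 with 1 library left out, the highest without replicate 1 of day 13 and 0 without either day 0 library. Leaf at days 49/52 against day 13 (1) had 24 without a filter, 3 with the stricter filter, 7 with DESeq2, 0 with limma on either RPKM scale and 0 to 8 with 1 library left out, the highest without replicate 1 of day 13 and 0 without replicate 2 of days 49/52. Moderate root (2) had 23 without a filter, 16 with DESeq2, 6 in 1 fit over all libraries and 0 to 32 with 1 library left out. Rewatered root against its control (14) had 29 without a filter, 22 with DESeq2, 0 against the day 13 control and 0 to 13 with 1 library left out: 3 without replicate 1 of the control, 0 without its replicate 2 and 1 without replicate 2 of rewatered root. Root at days 49/52 against day 13 (23) had 40 without a filter and 6 to 36 with 1 library left out, of which 11 without replicate 1 of days 49/52. The cause was not tested. Shares of all genes under these alternatives are not given, here or above. The counts therefore show only how far the calls depended on the processing and on single libraries.

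Within an organ, same-numbered libraries of different groups showed little shared deviation over all genes of the fit. Their r was -0.24 to 0.28 over 15 pairs of leaf groups and -0.22 to 0.20 over 10 pairs of root groups. The numbers were therefore not taken to pair libraries within an organ. Single genes could still differ by number. Jcr4U30999.20, described as a heat shock factor protein, was far higher in replicate 1 than in replicate 2 in most groups. It read 177 and 0.258 CPM in day 13 root controls and 42.4 and 0.139 CPM in day 13 leaf controls, but 0.116 and 0.199 CPM in moderate leaf. The cause was not tested. Leaf and root libraries of the same group and number were not compared. A pairing across organs, which would bear on the organ contrasts, was thus not tested. With the replicate number as a block, 50 members were called in severe leaf, 69 in severe root, 1 in rewatered leaf, 0 between leaf days 49/52 and 13 and 1 in moderate root.

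Of 1776 values of named members under an alternative, 1587 kept direction and side of the threshold, 182 kept direction but missed the threshold and 7 reversed, all 7 with the day 13 control. In severe root Jcr4S15196.10 turned to 0.25. In rewatered root Jcr4S01168.40 turned to -0.28, Jcr4S01939.40 to 0.76, Jcr4S17576.20 to 0.10, Jcr4S03200.50 to 3.11, Jcr4S00691.30 to 0.51 and Jcr4S00535.40 to 0.21. Library totals alone moved the median log2 change of all genes to -0.21 in severe root, against which changes under that scaling are to be read.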
